A study of Leucoraja erinaceus with 4 samples.

Results

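In a set of 37 assembly clusters, one assembled gene was higher in ampullary receptor cells of a skate while another assembled gene of the same cluster was higher in the ampullary canals. These clusters held 81 such assembled genes of the 186064 in the series, 43 higher in receptor cells (called receptor-side) and 38 higher in canals (called canal-side). A cluster is the set of identifiers that share the part before "_g". The members were chosen by their read counts in receptor cells and canals, so every value of that contrast is given as a description and carries no test. An assembled gene had to reach 50 reads in receptor cells or canals and stay below 1000 reads in all 4 libraries. It also had to differ at least 4-fold between receptor cells and canals, on counts per 1000000 library reads (CPM) plus 0.5, in a cluster holding such a difference in each direction.

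The 4 libraries came from 1 adult little skate (Leucoraja erinacea), with 1 poly(A)-selected library per tissue. The tissues were ampullary receptor cells, described as electroreceptor cells, the ampullary canals that lead to them, body skin away from electroreceptors, and a 4 mg piece of liver. No genotype, treatment, sex or exact age is given in the labels. Similar read totals, from 11071249 in liver to 12303108 in canals, lay behind the 4 libraries. With 1 library per tissue, differences have no replicate check, and no p-value is given. Intervals are exact 95% intervals of a ratio of 2 read counts, and a count of 0 was taken as allowing up to 3 reads in that library, or 0.244 to 0.271 CPM. They cover counting error only, since PCR copies are not independent molecules and the spread between animals and dissections was not measured. In whole tissue, fewer cells of a type and less RNA per cell cannot be told apart.

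Ampullary organs sense weak electric fields. Their receptor cells sit in an epithelium at the inner end of a jelly-filled canal, open voltage-gated channels in response to a field and signal to nerve fibres through ribbon synapses, whereas the canal wall is a barrier epithelium that insulates the jelly. When reads are assembled without a genome, splice forms, alleles, close gene copies and unrelated sequences with a shared stretch can be placed in 1 cluster and be given separate identifiers. Duplicated genes and alternative transcripts are both known to differ in the tissues that use them. None of the 186064 identifiers matched the 23250 genes of the reference table, so no gene name, function, sequence or genome position is given, and the tissues could not be checked against marker genes. Which of these kinds of relation joins the members of a cluster was not tested.

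Opposite directions were found in 37 of the 1073 clusters with 2 or more assembled genes within the read limits (3.45%). Among the 13942 assembled genes within the read limits, 2761 (19.8%) were at least 4-fold higher in receptor cells and 980 (7.03%) at least 4-fold higher in canals. Of 1073 clusters with 2 or more assembled genes within the limits, 177 held 2 or more that differed at least 4-fold. In 124 of these all were higher in receptor cells, in 16 all were higher in canals, and 37 (20.9%) held both directions. The same share lay between 16.7% and 26.2% for the other pairs of libraries. Most of the 37 clusters held 2 members (31 clusters), while 5 held 3 and 1 held 4. The 37 clusters contained 199 assembled genes with 351 transcripts in all, between 2 and 17 assembled genes per cluster with a median of 4. The 118 that were not members comprised 86 below 50 reads in receptor cells and canals, 20 within the read limits that differed less than 4-fold, and 12 with 1000 reads or more in a library. Of those 12, 4 were at least 4-fold higher in receptor cells, 2 at least 4-fold higher in canals and 6 differed by less.

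The median receptor-side member gave 190 receptor-cell reads (51 to 950) and 7 canal reads (0 to 209). The median canal-side member gave 12.5 receptor-cell reads (0 to 154) and 208.5 canal reads (51 to 918). The median difference was 3.67 on the log2(CPM + 0.5) scale for receptor-side members and 3.02, in the other direction, for canal-side members. At least 16-fold differences were found for 16 of 43 receptor-side members (37.2%, against 23.5% of the 2718 other assembled genes past 4-fold in that direction). They were found for 7 of 38 canal-side members (18.4%, against 13.3% of 942). The others had fewer reads in the higher tissue, with medians of 147 in receptor cells and 154 in canals. Low counts could not reach 16-fold, because of the value added to CPM. How far this accounts for the larger shares of members was not tested. The whole set was shifted on the log2(CPM + 0.5) scale, since the median of the 13942 assembled genes lay 0.59 above equality in receptor cells. Relative to that median, 31 of the 43 receptor-side and 38 of the 38 canal-side members remained at least 4-fold apart. The canal-side count could not come out otherwise, since the shift moves these members farther from the reference. All 81 kept their direction with TMM factors, with DESeq2 size factors and with the deposited TPM. For the TMM and DESeq2 factors this could not come out otherwise, since they shift all assembled genes alike by less than 4-fold. Only 33 receptor-side members were still 4-fold apart with TMM factors.

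**Figure D1:**
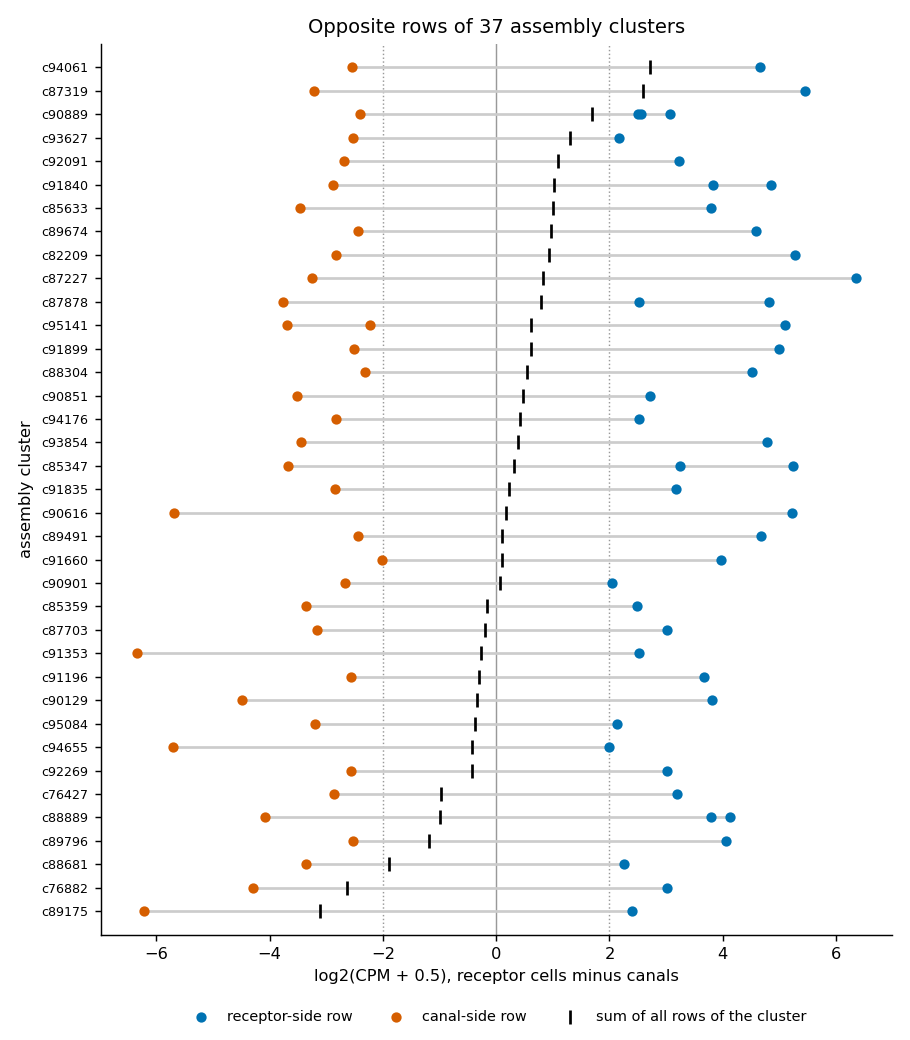
Each line is 1 of the 37 clusters, and points give the log2(CPM + 0.5) difference between receptor cells and canals for its receptor-side (blue) and canal-side (orange) members, with 1 library per tissue and no error bars. Black ticks give the same difference for all assembled genes of the cluster summed, dotted lines mark 4-fold, and the sums run from -3.10 to 2.71 while every cluster has points beyond both dotted lines.

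Clusters were ranked by the smaller of their opposite differences, taken at the interval end nearest to equality, and c90616 came first. Its assembled gene c90616_g3 (3 transcripts) gave 778 receptor-cell reads, 15 canal reads, 1 skin read and 2 liver reads. Its receptor-cell level was 52.1-fold its canal level (interval 31.4 to 93.6). Its partner c90616_g2 (2 transcripts) gave 7 receptor-cell reads, 671 canal reads, 1 skin read and 2 liver reads, and was 95.4-fold higher in canals (46.0 to 238). Both were high in 1 ampullary tissue each and close to 0 in skin and liver.

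Cluster c88889 came next by that interval end, although some other clusters had larger ratios in both directions. Assembled gene c88889_g1 gave 32 receptor-cell reads, 640 canal reads, 3 skin reads and 4 liver reads, 19.9-fold above its receptor-cell level in canals (14.0 to 29.3). Assembled gene c88889_g2 gave 190 receptor-cell reads, 8 canal reads, 297 skin reads and 2 liver reads, 23.9-fold above its canal level in receptor cells (11.9 to 56.1). The canal-side member was thus high in canals alone, and the receptor-side member was high in receptor cells and in skin. The remaining member, c88889_g3, chosen for mention after its values were seen, had 100 reads in receptor cells, 110 in skin and 0 in canals and liver.

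Some members lay close to the 4-fold limit. Just inside it, a receptor-side member gave 246 receptor-cell and 57 canal reads, and a canal-side member 31 and 144. Just outside it, an assembled gene with 66 and 12 reads and another with 52 and 221 each shared a cluster with one past 4-fold in the other direction. The interval of the ratio lay on 1 side of equality for all 81 members. That count could not come out otherwise, given the minimum of reads and the 4-fold rule. For 73 of the 81 members the nearer end of the interval was at least 4-fold. The corresponding share among other assembled genes past 4-fold is not given.

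Levels of different assembled genes were compared per length, in deposited TPM, a transcript abundance scaled for length, between the receptor-side and the canal-side member of each cluster whose intervals ended farthest from equality. The leading member changed between the ampullary tissues in 34 of the 37 clusters, with the receptor-side member ahead in receptor cells and the canal-side member ahead in canals. The median log2 ratio of the canal-side to the receptor-side member, on TPM plus 0.5, was -3.62 in receptor cells and 4.30 in canals. The rule used these libraries, so the change of lead is a description of the members. The 3 clusters without a change of lead were picked out after their values were seen. In c89796 the canal-side member c89796_g2 led in receptor cells too, with 30.9 TPM there and 113.1 in canals, against 24.2 and 0.81 for c89796_g4. In c89491 the canal-side member c89491_g2 had 44.2 TPM in receptor cells and 220.7 in canals, against 41.6 and 0 for c89491_g7. In c87319 the receptor-side member c87319_g4 led in both tissues, with 105.2 TPM in receptor cells and 4.21 in canals, against 0 and 2.72 for c87319_g5. The canal value of c87319_g4 rests on 4 reads and a weighted length of 286 bases there, against 51 reads and 1820 bases for c87319_g5.

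Some members had no read in the opposite tissue. Of the 43 receptor-side members, 6 had no read in canals (14.0%, against 16.6% of other receptor-side assembled genes). Of the 38 canal-side members, 4 had no read in receptor cells (10.5%, against 7.11% of other canal-side assembled genes). In 6 of the 37 clusters each member of the compared pair had 5 reads or fewer in the opposite tissue, and in 1 of them, c95141, both had 0. Assembled gene c95141_g4 gave 202 receptor-cell reads, 0 canal reads, 68 skin reads and 100 liver reads. With the 0 canal reads set to 3, its receptor-cell level was 67.7-fold its canal level (lower interval end 22.8). Assembled gene c95141_g3 gave 74 canal reads and none in the other 3 libraries. With the 0 receptor-cell reads set to 3, its canal level was 24.5-fold its receptor-cell level (lower interval end 8.08). The first was thus read in 3 libraries that held no read of the second. Both were 711 bases long, the only pair of equal length among the 37. The remaining member, c95141_g2, was also canal-side, with 8 receptor-cell, 60 canal, 3 skin and 2 liver reads.

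Skin and liver entered the choice of members only through the upper limit of 1000 reads. Their levels are not thereby independent of the choice. The order in skin and the counts of leads in liver given below changed with the settings used to choose members. Receptor-side members had a median of 53 skin reads (0 to 867) and canal-side members a median of 14 (0 to 593). In liver both had a median of 5 reads, ranging up to 342 and 828. At least 10 reads in skin were found for 31 of 43 receptor-side members (72.1%, against 61.7% of the other assembled genes of that direction) and for 20 of 38 canal-side members (52.6%, against 46.4%). The corresponding counts in liver were 17 of 43 (39.5%, against 46.8%) and 14 of 38 (36.8%, against 36.8%).

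**Figure D2:**
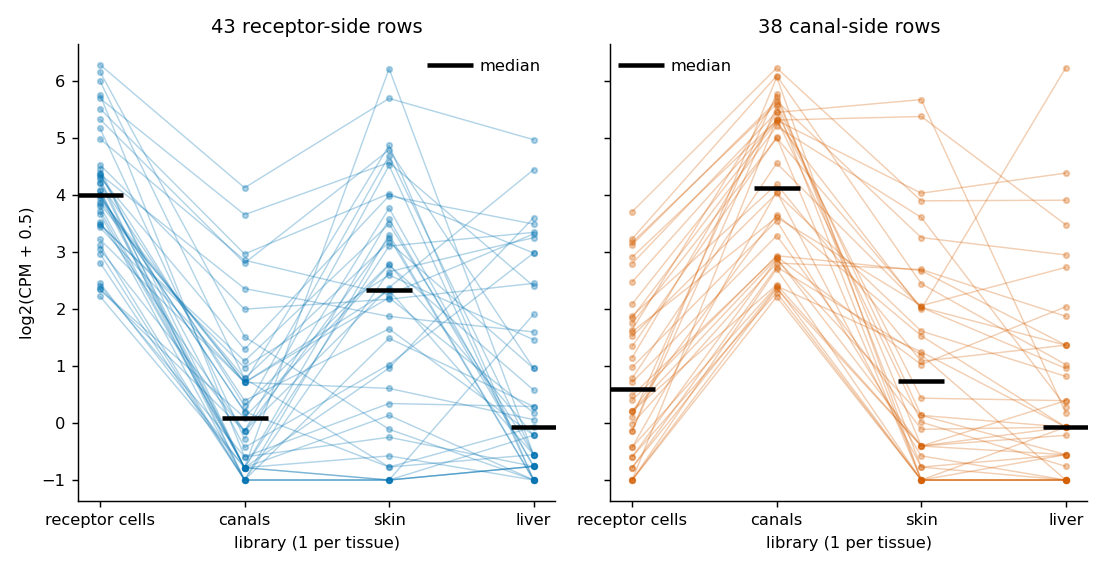
Level of each member on the log2(CPM + 0.5) scale in the 4 libraries, with receptor-side members on the left and canal-side members on the right; each line is 1 assembled gene and black bars are medians over members. Receptor-side members have a median of 53 reads in skin and 5 in liver, and canal-side members a median of 14 in skin and 5 in liver.

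Differences of at least 4-fold between skin and liver were found more often for receptor-side than for canal-side members. At least 4-fold higher levels in skin than in liver were found for 16 of 43 receptor-side members (37.2%) and 3 of 38 canal-side members (7.89%). The shares were 14.2% among all 13942 assembled genes within the limits, 17% among other receptor-side and 14.1% among other canal-side assembled genes. At least 4-fold lower levels in skin were found for 3 receptor-side members (6.98%) and 1 canal-side member (2.63%). The shares were 3.11% of all, 3.72% of other receptor-side and 6.69% of other canal-side assembled genes. The median skin minus liver difference on the log2 scale was 0.89 for receptor-side members and 0.10 for canal-side members. It was 0.42 for other receptor-side assembled genes, 0.23 for other canal-side ones and 0.74 over all within the limits. With 1 library per tissue the difference between the sides was not tested. Members with few reads in both tissues could not reach 4-fold, because of the value added to CPM. Canal-side members had a median of 14 skin reads, against 53 for receptor-side members. How far this accounts for the difference between the sides was not tested. The shares use library totals, and shares with TMM factors (1.111 for skin, 0.6041 for liver) are not given.

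Members were ranked between skin and liver by the interval end nearest to equality, and 2 of the 4 named by that ranking lay in 1 cluster. Assembled gene c85347_g2 gave 263 receptor-cell reads, 1 canal read, 867 skin reads and 2 liver reads, 409.6-fold higher in skin than in liver (113.1 to 3388). Its cluster partner c85347_g3, also receptor-side, gave 61 receptor-cell reads, 1 canal read, 17 skin reads and 129 liver reads, 8.03-fold higher in liver than in skin (4.83 to 14.2). The canal-side member c85347_g10 gave 25 receptor-cell reads, 391 canal reads, 0 skin reads and 5 liver reads. The 3 members of this cluster were therefore highest in skin, liver and canals, respectively.

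The other 2 named by that ranking were canal-side. Assembled gene c76882_g2 gave 21 receptor-cell reads, 532 canal reads, 593 skin reads and 7 liver reads, 80.05-fold higher in skin than in liver (38.6 to 200.0). Assembled gene c95084_g1 gave 46 receptor-cell reads, 475 canal reads, 41 skin reads and 828 liver reads, 21.4-fold higher in liver than in skin (15.6 to 30.0). The first was thus shared by canals and skin and the second by canals and liver. By the log2(CPM + 0.5) difference itself, some receptor-side members with 0 reads in 1 of both tissues ranked farther out. Among these, picked after their values were seen, were c91835_g1, with 337 skin and 0 liver reads (5.87), and c82209_g1, with 0 skin and 36 liver reads (-2.91).

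Against skin, 18 of the 43 receptor-side members were at least 4-fold higher in receptor cells (41.9%), and 1 was at least 4-fold lower (2.33%). Over all assembled genes within the limits the shares were 20.1% and 3.31%, and among other receptor-side assembled genes 56.7% and 1.80%. Against liver, 34 receptor-side members were higher in receptor cells (79.1%) and 0 lower, where the shares over all were 35.9% and 1.41%. For canal-side members, 28 of 38 had canal levels at least 4-fold above skin (73.7%) and 0 lower, with shares over all of 14.0% and 8.05%. Against liver, 31 were higher in canals (81.6%) and 0 lower, with shares over all of 21.4% and 3.42%. These comparisons share the receptor-cell or the canal library with the rule that chose the members. The shares among other assembled genes of the same direction, which also passed that rule, were 74.9% for receptor cells over liver, 74.7% for canals over skin and 80.8% for canals over liver. All these shares use library totals. On that scale the median log2 difference over all assembled genes within the limits was 1.53 for receptor cells over liver and 0.87 for canals over liver. The TMM factors were 1.476 for receptor cells, 1.01 for canals and 0.6041 for liver. Shares against liver with these factors are not given.

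A tissue outside the chosen pair was sometimes the highest of all. By CPM, 33 of 43 receptor-side members were highest in receptor cells, 8 in skin and 2 in liver. Among the 2718 other receptor-side assembled genes, the counts were 2320, 299 and 99. Of the 38 canal-side members, 35 were highest in canals, 2 in skin and 1 in liver. Among the 942 other canal-side assembled genes, the counts were 827, 71 and 44. Standing at least 4-fold above each of the other 3 libraries was found for 16 receptor-side members (37.2%, against 50.7% of other receptor-side assembled genes) and 27 canal-side members (71.1%, against 67.8%). The 1 receptor-side member at least 4-fold lower than in skin was c85359_g4, named after its values were seen, with 56 receptor-cell, 5 canal, 263 skin and 0 liver reads. The other receptor-side member highest in liver was c91196_g4, with 135 receptor-cell, 5 canal, 55 skin and 236 liver reads.

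Within clusters, skin and liver did not side uniformly with receptor cells or canals. By TPM, the receptor-side member of the pair led in skin in 21 clusters and the canal-side member in 16. In liver the canal-side member led in 20 clusters and the receptor-side member in 17. Both members had under 10 reads in 6 clusters in skin and in 15 in liver, and without these the leads were 20 to 11 in skin and 11 to 11 in liver. Leads of at least 4-fold on TPM plus 0.5 belonged to the receptor-side member in 17 clusters in skin and 7 in liver, and to the canal-side member in 7 and 8. The order in skin depended on the scaling used to choose members. When members were chosen with TMM factors, which kept 29 of the 37 clusters, the canal-side member led in skin in 22 of 37, and with DESeq2 size factors in 23 of 40. The liver leads moved as well. There the canal-side member led in 24 of 37 clusters with TMM factors and 27 of 40 with DESeq2 size factors. It led in liver in 19 of 40 with deposited TPM and in 27 of 59 without the upper limit of reads.

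**Figure D3:**
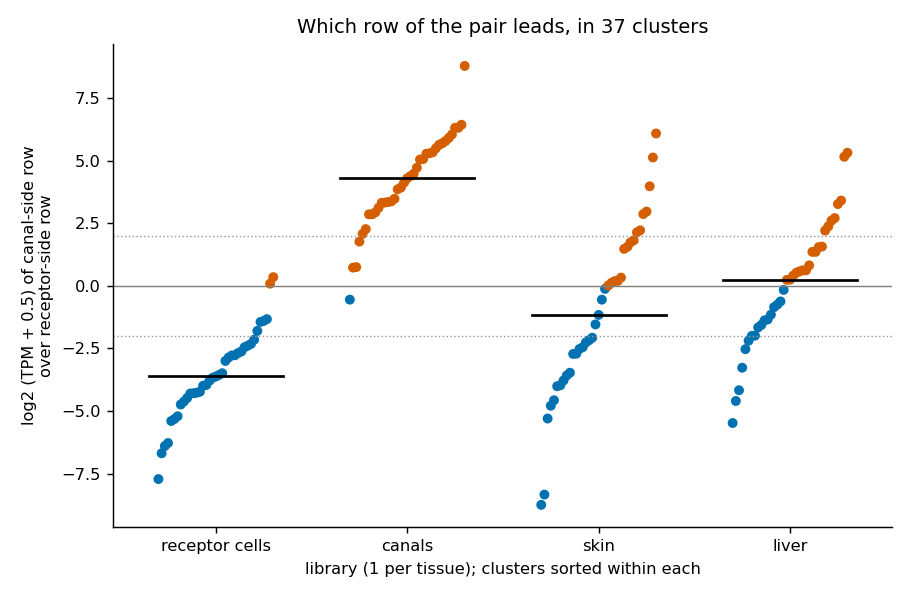
Log2 ratio of the canal-side to the receptor-side member of each of the 37 clusters, on deposited TPM plus 0.5, in each library; clusters are sorted within each library, black lines are medians and dotted lines mark 4-fold. Medians lie at -3.62 (receptor cells), 4.30 (canals), -1.16 for skin and 0.25 for liver.

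The same cluster could side with different tissues in skin and liver. At least 4-fold leads in opposite directions were found in 3 clusters, picked out after their values were seen. In c82209 the receptor-side member c82209_g1 gave 232 receptor-cell reads, 0 canal reads, 0 skin reads and 36 liver reads. The canal-side member c82209_g3 had 3, 59, 22 and 5 reads in the same order. The cluster had 549 skin and 396 liver reads in all, most of them on its assembled gene that was not a member. Between the members, skin held the canal-side and liver mainly the receptor-side one. The reverse was seen in c76427, where the receptor-side member c76427_g2 gave 95 receptor-cell reads, 5 canal reads, 106 skin reads and 0 liver reads. Its canal-side partner c76427_g1 had 109, 835, 58 and 17 reads in that order. This cluster had 842 skin and 210 liver reads in all. In c85359, the canal-side member c85359_g5 had 0, 57, 3 and 5 reads, against the skin-rich c85359_g4 given above. The liver lead in c85359 rests on 5 reads against 0. This cluster is among those with under 10 reads of both members in liver. Over all clusters, 14 had at least 10 reads of both members in skin, and 6 had them in liver.

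Summed over all assembled genes of a cluster, 26 of the 37 clusters (70.3%) lay within 2-fold between receptor cells and canals. The choice required opposite differences, which offset each other in a sum. How far this accounts for the share was not tested, and assembled genes that were not members also enter the sums. Among 1036 other clusters with 2 or more assembled genes within the limits, 565 (54.5%) lay within 2-fold. The median log2 difference of the sums was 0.61 for these other clusters and 0.23 for the 37. Of the remaining 11 sums, 5 were 2- to 4-fold higher in receptor cells, 2 at least 4-fold higher there, 2 were 2- to 4-fold higher in canals and 2 at least 4-fold higher there. The members carried 45.0% of the clusters' receptor-cell reads, 46.7% of their canal reads, 33.0% of their skin reads and 23.7% of their liver reads. As a share of all library reads they were 0.1%, 0.107%, 0.0604% and 0.0303%, respectively.

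Among the 16 clusters with at least 500 summed reads in each ampullary tissue, c90901 had the most equal sums, with 708 reads in receptor cells and 683 in canals. Assembled gene c90901_g1 gave 629 receptor-cell reads, 149 canal reads, 273 skin reads and 53 liver reads, 4.24-fold above its canal level in receptor cells (3.54 to 5.11). Assembled gene c90901_g2 gave 79 receptor-cell reads, 534 canal reads, 10 skin reads and 9 liver reads, 6.73-fold higher in canals (5.30 to 8.63). These were the only assembled genes of the cluster, whose sums were near equal while the more abundant member differed.

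Cluster c89491 came next, with 2002 summed reads in receptor cells and 1863 in canals over 7 assembled genes, practically tied with c91660 (790 and 735 reads, both at a log2 difference of 0.11). Its member c89491_g7 gave 150 receptor-cell reads, 0 canal and skin reads and 4 liver reads, at least 50.3-fold above its canal level. Its member c89491_g2 gave 104 receptor-cell reads, 590 canal reads, 7 skin reads and 2 liver reads, 5.64-fold higher in canals (4.58 to 7.02). The cluster also had 4465 reads in skin and 510 in liver, where each of the 2 members had 7 reads or fewer.

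Cluster c90889 held the most members, 3 receptor-side and 1 canal-side. The canal-side member c90889_g4 gave 86 receptor-cell reads, 483 canal reads, 186 skin reads and 226 liver reads. The receptor-side members gave 554 (c90889_g6), 169 (c90889_g5) and 108 reads (c90889_g2) in receptor cells, and 90, 15 and 14 in canals. In skin the 3 had 185, 100 and 48 reads and in liver 82, 16 and 7. All 3 were thus lowest in canals or liver, with skin in between, whereas c90889_g4 was lowest in receptor cells.

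Members had lower median lengths than other assembled genes of the same direction. Length here is the mean over transcripts, weighted by abundance in the tissue where the assembled gene was higher. The median was 924 bases (358 to 3813) for receptor-side members, against 1334 for other receptor-side assembled genes, and 989.5 bases (330 to 4699) for canal-side members, against 1272. Canal-side members had 2 or more transcripts in 23 of 38 cases (60.5%, against 48.3%), and receptor-side members in 17 of 43 (39.5%, against 46.3%). In the compared pairs the canal-side member was longer in 20 clusters and the receptor-side member in 16. The longer exceeded the shorter by a median of 1.41-fold, by at least 2-fold in 11 clusters, and by less than 10% in 6.

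The largest length ratios belonged to c94061 and c76427. In c94061 the receptor-side member c94061_g2 was 1789 bases long and gave 871 receptor-cell reads, 29 canal reads, 5 skin reads and 0 liver reads. Its canal-side partner c94061_g3 was 373 bases long and had 10, 88, 69 and 23 reads in that order. The long member was thus high in receptor cells alone, and the short one was lowest there. In c76427 the order was the other way, with the canal-side member at 1234 bases and the receptor-side member at 358.

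**Figure D4:**
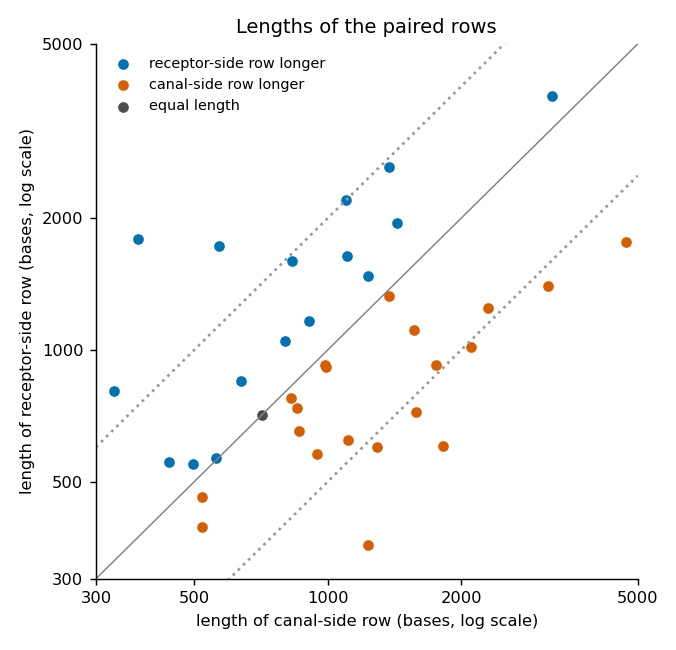
Length of the canal-side member (horizontal axis, bases, log scale) against that of the receptor-side member (vertical axis, bases, log scale) in the 37 clusters, each point 1 cluster. The solid line marks equal length and dotted lines 2-fold; the canal-side member is longer in 20 clusters, the receptor-side member in 16, and 11 lie at least 2-fold apart.

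Weighted lengths of members were also compared between receptor cells and canals, and no share over other assembled genes was computed for this. Among 25 multi-transcript members that reached 10 reads in both ampullary tissues, 3 differed at least 1.5-fold in weighted length between them. These are named because there were few. The receptor-side member c91353_g7 had a weighted length of 1108 bases in receptor cells (486 reads) and 2392 in canals (80 reads), with 2392 also in skin and liver. Its canal-side partner c91353_g2 gave 0 receptor-cell reads, 491 canal reads, 6 skin reads and 1 liver read, at least 162.8-fold above its receptor-cell level. The canal-side member c87227_g1 measured 1166 bases in receptor cells (35 reads) and 1758 in canals (388 reads). The receptor-side member c90851_g2 measured 653.6 bases in receptor cells (126 reads) and 417.2 in canals (14 reads).

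Reads shared between similar sequences can make estimated counts fractional. Of the 81 members, 1 had a count more than 0.001 from a whole number. This was c87703_g10, with 237.23 reads in receptor cells and 118.59 in liver. Among the 13942 assembled genes within the limits 198 had one (1.42%), a share near that of the members. A whole count does not show that no read was divided, and whether counting used the strand of the reads is not given in the sources used here. An antisense transcript or a close copy could therefore share reads with a member, which was not tested.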

How the data were processed

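Tissue was preserved in RNAlater, RNA was isolated with Trizol, and each stranded poly(A) library was made from 1 µg of RNA, per the labels' protocols. RSEM 1.1.17 is named in the submitters' processing notes; no source used here states the assembler, aligner or filters. Per the file headers, the deposited expected counts estimate the reads of each assembled gene without normalization, and the deposited TPM values correct for length and library size. Lengths are weighted by transcript abundance in each library.

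Expected counts were rounded. CPM used the sum of all rounded counts per library, 0.5 was added, and differences are on the log2 scale, where the added value shrinks the differences of low counts. Intervals are Clopper-Pearson at 95%, with 0 reads set to 3. Alternatives used TMM factors (edgeR 4.0.16) and DESeq2 1.42.0 size factors (R 4.3.3). The selection was tested on simulated data (Python 3.11.15, pandas 2.3.3, scipy 1.17.1). No rate of wrongly chosen members in the 4 libraries is taken from that test. Members, rules and named assembled genes were chosen with earlier results of these data known. Since identifiers carry no names, each view named at most 2 clusters: by the smaller opposite difference (interval end nearest to equality), by equality of sums, by number of members, by length ratio, and the 2 highest and 2 lowest members in skin against liver by the same interval end; others are marked in the text. Marker lists could not be applied.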

Additional observations from a re-analysis of the deposited data

How the results depend on the processing

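No paired analysis was possible because there is 1 library per tissue, so leaving one out would empty a group. The 6 counts (43 receptor-side members, 38 canal-side members, 37 clusters, 16 clusters led by the canal-side member in skin, 20 in liver, and 26 with sums within 2-fold) took 60 values under 10 alternatives, with 34 of them less than 1.5 times away from the reported count and 26 farther. Scaling by TMM or DESeq2 factors, the deposited TPM, a pseudocount of 0.1 and a 4-fold rule at the interval end moved none of the 6 by more than 1.5 times. These settings did change which clusters were chosen: TMM factors gave 37 clusters of which 29 were shared, DESeq2 factors 40 with 28 shared and TPM 40 with 34 shared. In the order of the 6 counts, an 8-fold rule gave 14, 12, 12, 6, 7 and 9, a pseudocount of 2 gave 20, 17, 17, 8, 11 and 13, and a minimum of 100 reads gave 23, 19, 19, 6, 10 and 15, all stricter by construction. A minimum of 20 reads gave 84, 72 and 71 for the first 3 counts and 41 sums within 2-fold. Its 23 clusters led by the canal-side member in skin and 27 in liver were less than 1.5 times away, but out of 71 clusters. The counts of leads and sums were compared as counts, not as shares of the clusters chosen. Without the upper limit of reads there were 72, 64 and 59, with 25 led by the canal-side member in skin. Both of these admit more assembled genes by construction. The median receptor-cell minus canal difference of assembled genes within the limits was 0.59 with library totals, 0.07 with TMM factors, -0.10 with DESeq2 factors and 0.69 with TPM.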

Other observations

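The same rule was applied to the other pairs of libraries as a description. Clusters with members of both directions numbered 46 for receptor cells and skin, 54 for receptor cells and liver, 47 for canals and skin, 44 for canals and liver and 43 for skin and liver, where receptor cells and canals gave 37. As a share of clusters with 2 or more assembled genes past 4-fold, these were 21.7%, 16.7%, 22.8%, 26.2% and 19.5%, against 20.9%. Pairs that include receptor cells or canals share a library with the reported comparison. Skin and liver share none with it, and 1 cluster, c85347, was in both sets, which is 2.70% of the 37 and 2.33% of the 43. The 37 were 3.45% of the 1073 clusters with 2 or more assembled genes within the limits for receptor cells and canals. That share is not an expected overlap for the 43, because their read limits were set on skin and liver. How many of the 43 lay among the 1073 is not given.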
